A study of Mus musculus with 2 samples.

Results

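Among cells sorted as lung mesenchyme from mice carrying Lepr-CreERT2;Rosa26-tdtomato, given bleomycin or saline, a small set held RNA of epithelial genes. These cells, selected on their own transcript counts, were the 261 of 18351 filtered cells with at least 1 UMI (unique molecular identifier, 1 counted transcript molecule) in 3 or more of the 10 genes Epcam, Cdh1, Cldn18, Lamp3, Napsa, Slc34a2, Sftpb, Sftpd, Ager and Rtkn2. A cell with 2 or more of the 4 mesothelial genes Msln, Upk3b, Lrrn4 and Wt1 was left out, which removed 1 bleomycin cell and 0 saline cells. The bleomycin library held 160 of them among 10001 filtered cells, or 1.60% (exact 95% interval 1.36 to 1.87). The saline library held 101 among 8350, or 1.21% (0.986 to 1.47). They are called epithelial-marker cells here, since the rule used RNA alone.

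Mice of both groups were 8 to 10 weeks old and carried a tamoxifen-inducible Cre recombinase driven from the leptin receptor gene, together with a tdtomato reporter. Digested lungs were sorted for live tdtomato-positive cells without CD45, EpCAM or CD31 on the surface, a gate meant to exclude leukocytes, epithelial cells and endothelial cells. Each treatment had 1 library, so there was no replicate check and no test. All intervals cover counting error only, and the treatment and the library cannot be told apart. The sources used here do not give the number of mice per library, the bleomycin dose, the time since injury or the tamoxifen schedule.

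The alveolar wall is lined by flat alveolar type 1 (AT1) cells, across which gases diffuse, and cuboidal type 2 (AT2) cells, which make surfactant and renew AT1 cells after injury. In injured mouse lungs, AT2 cells on the way to AT1 pass through a transitional state with high keratin 8 (Krt8), claudin 4 (Cldn4), stratifin (Sfn) and targets of the tumour suppressor p53. The airways are lined mainly by secretory club cells and by ciliated cells.

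The deposited barcodes, 10138 in bleomycin and 8396 in saline, held 134732429 and 60937359 UMIs. Epithelial-marker cells had a median of 9508.5 UMIs in bleomycin and 5759 in saline, against 11777 and 6792 for all other filtered cells of those libraries. Because depth differed, shares of cells with a UMI were also computed after each cell was thinned to 2000 UMIs, which left out 10 bleomycin and 2 saline epithelial-marker cells. The libraries shared 25 cell barcodes, 0 of them from epithelial-marker cells. Doublet calling marked 66 saline cells (0.790%) and 0 bleomycin cells, and the 0 is not read as an absence of doublets. Of the epithelial-marker cells, 14 in bleomycin (8.75%) and 11 in saline (10.9%) were in the top 5% of doublet scores of their library.

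The genes that chose the cells are given as a description. Epcam, the adhesion molecule against which the gate was set, had a UMI in 60.6% of bleomycin and 53.5% of saline epithelial-marker cells, against 0.427% and 0.182% of the other cells. Its level was 232 CPM (counts scaled to 1e6 UMIs) in bleomycin and 159 CPM in saline. Cdh1, which encodes the epithelial adhesion protein E-cadherin, had a UMI in 66.2% and 56.4%. Both libraries, sorted as EpCAM-negative, thus held cells with Epcam RNA.

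Ager, the receptor that marks AT1 cells (identifier ENSMUSG00000015452, chromosome 17, 34597862 to 34600936 of mm10), was at 4426 CPM in bleomycin and 12281 CPM in saline epithelial-marker cells, against 5.63 and 5.68 CPM in the other cells. An Ager UMI was found in 85.0% of the bleomycin and 94.1% of the saline epithelial-marker cells, and in 4.70% and 2.76% of the others. Cldn18, a claudin of alveolar tight junctions, had a UMI in 76.9% in bleomycin and 93.1% in saline. The AT2 genes ran the other way. Sftpd, encoding surfactant protein D, had a UMI in 63.8% of bleomycin and 17.8% of saline epithelial-marker cells, and Napsa, a protease that processes surfactant protein, in 51.2% and 10.9%.

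In bleomycin, cells just inside the rule carried more fibroblast RNA than cells well inside it. With exactly 3 of the markers there were 38 bleomycin and 26 saline cells, and with 2, just outside, 70 and 46. Summed CPM of 12 fibroblast genes, among them Col1a1, Dcn and Mgp, was compared with a limit of 0.5 times the median of the other cells of the same library, which was 27275 CPM in bleomycin and 16667 CPM in saline. Cells below it are called low-fibroblast here, and they numbered 131 of 160 in bleomycin and 90 of 101 in saline. Among cells with 3 markers they were 19 of 38 and 21 of 26, with median fibroblast levels of 24931 CPM in bleomycin and 6434 CPM in saline, against 5656 and 5261 CPM in cells with 4. A Col1a1 UMI was found in 38.1% of bleomycin and 17.8% of saline epithelial-marker cells, against 97.3% and 88.7% of the others. Lepr itself had a UMI in 4 bleomycin and 5 saline epithelial-marker cells, and the deposited gene list had no tdtomato or Cre entry.

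**Figure D1:**
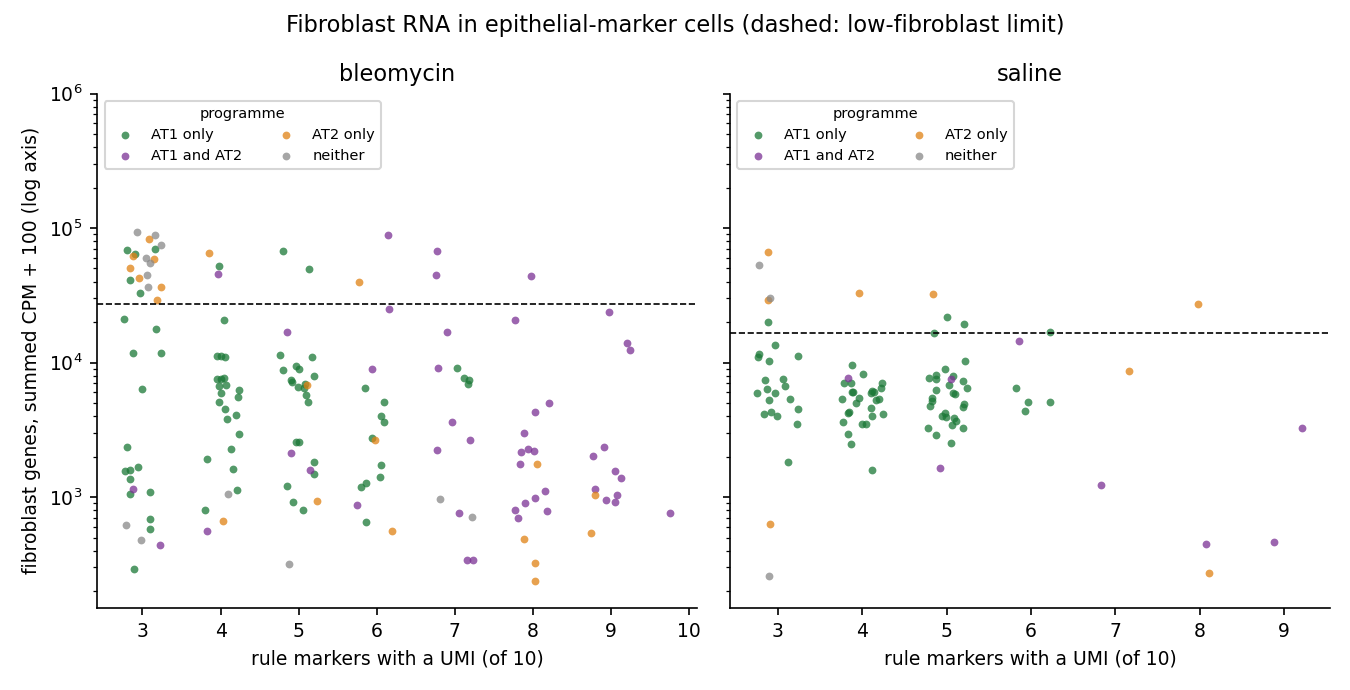
Each point is 1 epithelial-marker cell, placed by the number of rule markers with a UMI (horizontal, spread slightly for display) and by summed CPM of the fibroblast genes plus 100 on a log axis (vertical), for bleomycin (left) and saline (right), coloured by alveolar programme. Of the cells, 131 in bleomycin and 90 in saline lie under the dashed low-fibroblast limit, and in bleomycin 19 of the 38 cells with 3 markers lie above it.

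Alveolar programmes were read from genes that the rule did not use. A cell was counted as positive for a programme if it had UMIs of at least 3 of its listed genes. The AT1 list was Hopx, Aqp5, Akap5, Clic5, Spock2, Lmo7, Col4a3 and Krt7, and the AT2 list Sftpc, Sftpa1, Abca3, Etv5, Cxcl15, Lpcat1, Chil1 and S100g. Such a class is a range of detected genes and not a sharp type.

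The AT1 programme was found in most epithelial-marker cells of both libraries. It was positive in 127 of 160 bleomycin cells (79.4%, 72.3 to 85.4) and 90 of 101 saline cells (89.1%, 81.3 to 94.4). At 2000 UMIs the shares were 52.0% in bleomycin and 84.8% in saline, with intervals of 43.7 to 60.2 and 76.2 to 91.3 that lay apart. Among the other cells it was positive in 1.41% and 0.533%, or 0.187% and 0.0494% at 2000 UMIs.

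The AT2 programme was positive in 68 of 160 bleomycin cells (42.5%, 34.7 to 50.6) and 16 of 101 saline cells (15.8%, 9.33 to 24.4). The intervals did not overlap at full depth. At 2000 UMIs the shares were 22.7% (16.2 to 30.2) in bleomycin and 13.1% (7.18 to 21.4) in saline, and these intervals overlapped. The difference between the thinned shares was not tested. Among the other cells the AT2 programme was positive in 3.53% and 0.958%, or 0.0414% and 0.124% after thinning.

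In the cross of both programmes, 79 bleomycin cells (49.4%) and 82 saline cells (81.2%) had AT1 only. Both were positive in 48 bleomycin cells and 8 saline cells. The cross was made at full depth only, and cells with both programmes were deeper. Their median was 14464.5 UMIs in bleomycin and 9013.5 in saline, against 6326 and 5584 in AT1-only cells. The part of depth in these class counts was not tested. AT2 only was found in 20 and 8, and neither in 13 and 3. The cells with neither programme, and saline cells with AT2 only, carried the most fibroblast RNA, with medians of 36043 CPM (neither, bleomycin), 29915 CPM (neither, saline) and 28003 CPM (AT2 only, saline). The medians of AT1-only cells were close to each other, 5849 CPM in bleomycin and 5346 CPM in saline.

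**Figure D2:**
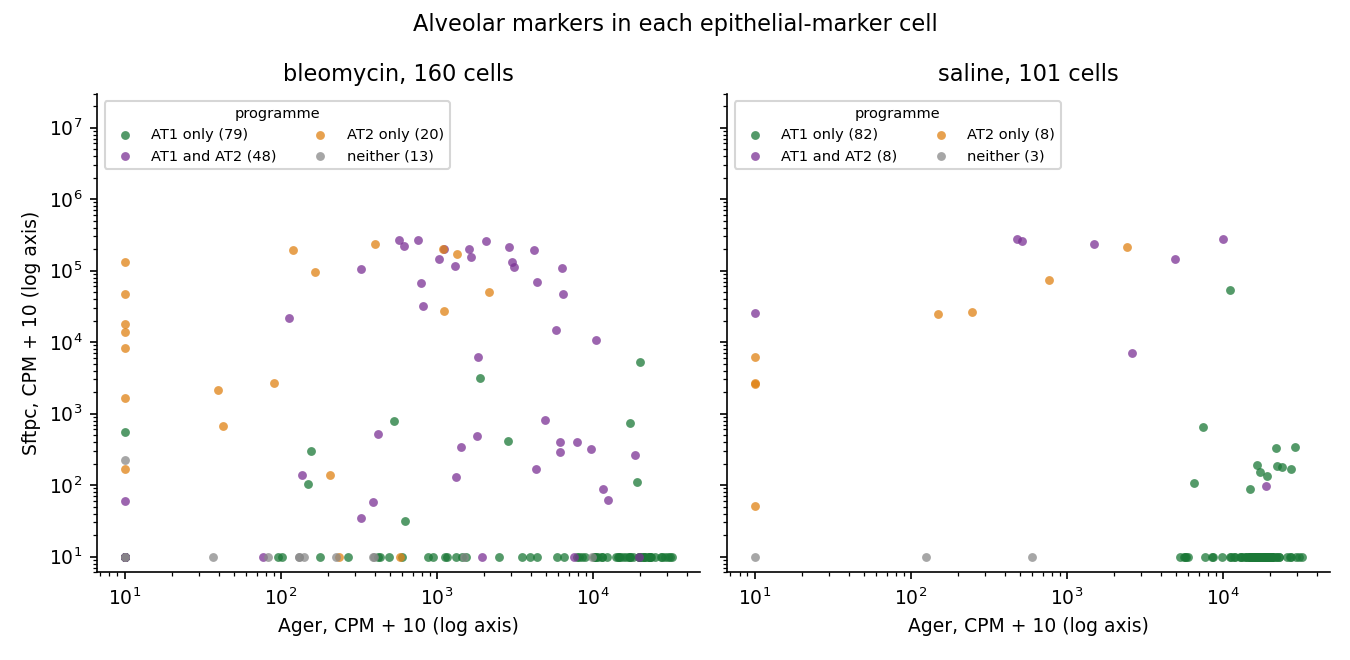
Each point is 1 epithelial-marker cell, with Ager CPM plus 10 (horizontal, log axis) and Sftpc CPM plus 10 (vertical, log axis), for bleomycin (left, 160 cells) and saline (right, 101 cells), coloured by programme. Saline AT1-only cells form a group at high Ager, from 5265 to 32282 CPM, while bleomycin AT1-only cells spread from 0 to 31896 CPM.

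Sftpc, which encodes surfactant protein C and is the classical AT2 transcript (ENSMUSG00000022097, chromosome 14, 70520949 to 70524081), reached 10000 CPM in 33 bleomycin and 11 saline cells. Of these, 4 in bleomycin and 2 in saline also had Ager at 5000 CPM or more. Among AT2-positive cells, Sftpc per cell had a lowest value of 0, a median of 7265 and a highest of 268187 CPM in bleomycin. In saline those values were 41.0, 25826 and 278295 CPM. Thus 30 of 68 AT2-positive bleomycin cells were under 1000 CPM of Sftpc, against 2 of 16 in saline. The ranges overlapped over almost their whole length. The cells under 1000 CPM included some positive for the club or ciliated airway programmes described below. Among them were bleomycin cells with 10954, 9072 and 6149 UMIs of the club gene Scgb1a1 and 0 of Sftpc. A saline one had 18463 Scgb1a1 UMIs and 1 of Sftpc.

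The transitional programme (at least 3 of Krt8, Krt18, Krt19, Cldn4, Sfn, Itgb6 and Sprr1a) was positive in 78.1% of bleomycin and 80.2% of saline epithelial-marker cells. At 2000 UMIs the shares were 52.7% and 47.5%. Keratins and the integrin subunit Itgb6 were read in AT1-only saline cells too, so this positive count did not separate the libraries. Single genes of the list did, as described for the AT1-only cells.

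**Figure D3:**
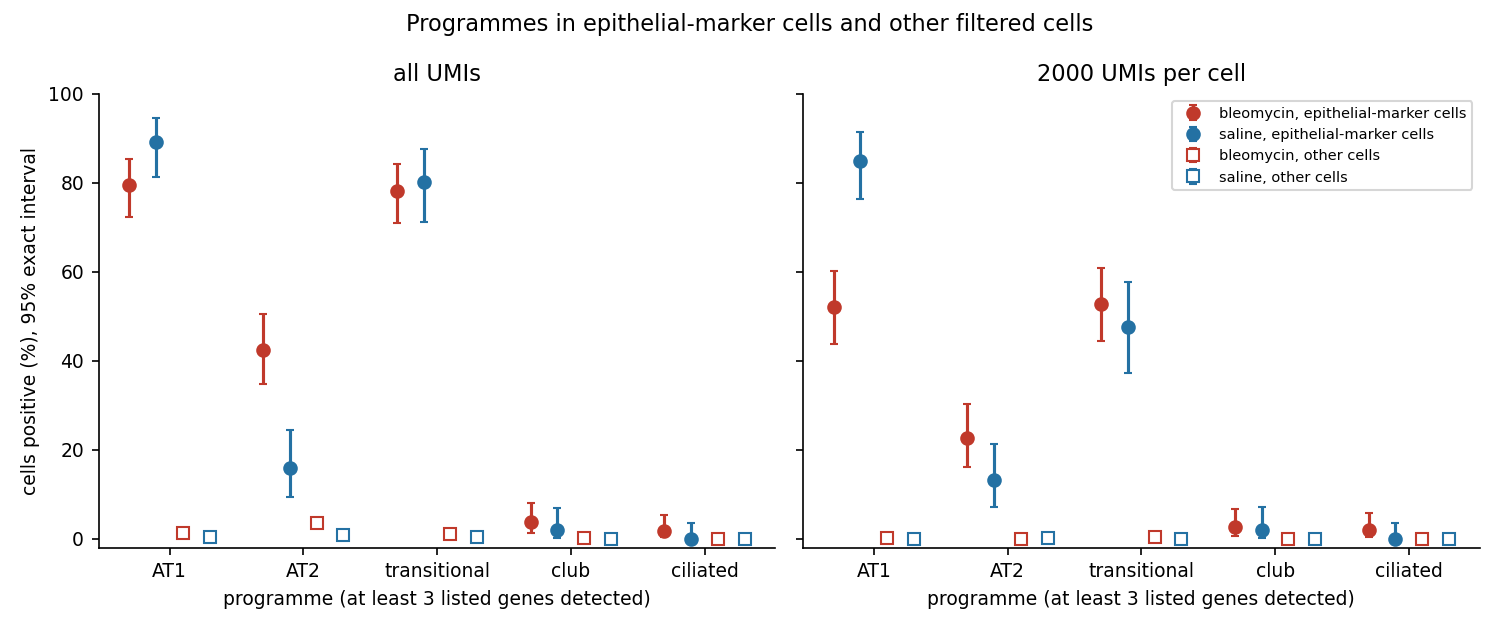
Percent of cells positive for each programme (vertical) with exact 95% intervals, at full depth (left) and at 2000 UMIs per cell (right), for epithelial-marker cells (filled circles) and other filtered cells (open squares) of the bleomycin (red) and saline (blue) libraries. At full depth the AT2 share is 42.5% in bleomycin and 15.8% in saline, and at 2000 UMIs 22.7% and 13.1% with overlapping intervals.

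Airway programmes were rare. The club programme was positive in 6 bleomycin cells (3.75%, 1.39 to 7.98) and 2 saline cells (1.98%, 0.241 to 6.97), and the ciliated programme in 3 bleomycin cells (1.88%) and 0 of 101 saline cells, which allows a share of up to 2.97% by a floor of 3 cells and 3.59% by the exact interval. Basal, neuroendocrine and tuft programmes were each positive in 0 of 160 and 0 of 101 cells. In the 3 ciliated-positive cells Foxj1, the master regulator of motile cilia, had 5, 3 and 11 UMIs, Tmem212 had 28, 26 and 9, and Ccdc153 had 6, 29 and 7. All 3 were low-fibroblast. Of the club-positive or ciliated-positive bleomycin cells, 5 fell in the class with AT1 and AT2, 2 in AT1 only and 2 in AT2 only. Not all of the club-positive cells were clearly club cells. An AT2-only one had 1 UMI each of Scgb1a1, Scgb3a2 and Cyp2f2 and 1761 of Sftpc. An AT1-only one had 41 Scgb1a1 and 58 Ager UMIs. Conversely, a bleomycin cell with 3501 Scgb1a1 UMIs was not club-positive and had neither alveolar programme.

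Scgb1a1, the secretoglobin that marks club cells (ENSMUSG00000024653, chromosome 19, 9083636 to 9087958), came from a handful of cells. The epithelial-marker cells held 33581 Scgb1a1 UMIs in bleomycin, of which 88.4% lay in 4 cells, and 28428 in saline, of which 18463 and 9948 lay in 2 cells. In those cells Scgb1a1 made up 59.6%, 69.4%, 73.7% and 67.1% of all UMIs in bleomycin, and 75.7% and 79.3% in saline. At least 1000 Scgb1a1 UMIs were found in 5 bleomycin and 2 saline epithelial-marker cells, and in 0 bleomycin and 3 saline cells among the others. The marker rule held no airway gene, and 4 saline cells outside it had 7410, 4702, 3727 and 784 Scgb1a1 UMIs with 1 or 2 rule markers. A single Scgb1a1 UMI was no mark of such a cell, since 2020 of 9841 other bleomycin cells and 989 of 8249 other saline cells had at least 1. The summed Scgb1a1 level, 18128 CPM in bleomycin and 42237 CPM in saline, therefore rested on 4 bleomycin and 2 saline cells, and its ratio of 0.429 became 1.21 without the deepest cell of each library.

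Between the libraries, a gene was called higher or lower by size, in place of a test. The levels had to differ 2-fold or more, with 20 CPM or more and UMIs in 10 or more cells in the higher library, and the exact interval of the ratio had to be clear of 1. Over all epithelial-marker cells 590 of 6543 measured genes were higher in bleomycin, which is 9.02%, and 512 were lower, 7.83%. The median log2 ratio over all measured genes was −0.0028. By list, 6 of 8 AT1 genes and 7 of 11 further AT1 genes were lower and 0 higher. Of 8 AT2 genes 3 were higher (Etv5, Cxcl15 and S100g), and of 6 measured MHC class II genes, which AT2 cells make, 6 were higher. Sftpc missed the limit at 27479 CPM in bleomycin and 17928 CPM in saline, a ratio of 1.53. Bleomycin had 68 AT2-positive cells and saline 16, and the part of this mixture in the whole-set ratios was not tested.

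The AT1-only cells, 79 in bleomycin and 82 in saline, were compared on their own, a class chosen after the data were seen. Here 556 of 6861 measured genes were higher in bleomycin (8.1%) and 402 lower (5.86%), and the median log2 ratio over them was 0.027. Their median depth was 6326 UMIs in bleomycin and 5584 in saline, and their cells with low fibroblast RNA were 71 and 78. Ager chose the cells in part, and so did Cldn18, Rtkn2, Sftpd and Napsa. The 8 AT1 genes placed cells in the class, and absence of AT2 genes did too.

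Summed over the AT1-only cells of each library, some AT1 genes were lower in bleomycin. Hopx, a transcription cofactor of AT1 cells (ENSMUSG00000059325, chromosome 5, 77086988 to 77115121), had per-cell levels of 0 at the lowest, 2560 at the median and 18750 CPM at the highest in bleomycin. In saline they were 2947, 14741 and 29139 CPM. Every saline cell had a Hopx UMI, and 69 of 79 bleomycin cells did. Summed, Hopx was at 3950 CPM in bleomycin and 14685 CPM in saline, a ratio of 0.269 (0.257 to 0.281), and the cells of the libraries overlapped.

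By the size rule 4 of the 8 AT1 genes were lower and 0 were higher, and the median of their log2 ratios was −0.94. Besides Hopx these were the scaffold protein gene Akap5 (ratio 0.366), the chloride channel gene Clic5 (0.461) and the water channel gene Aqp5 (0.487). Col4a3, a basement membrane collagen, had a ratio of 0.673, Krt7 of 0.868 and Spock2, a proteoglycan, of 0.991, and none of these was called. Of 11 further AT1 genes 3 were lower and 0 higher. They were Vegfa, the endothelial growth factor that AT1 cells supply (1360 CPM in bleomycin and 3451 CPM in saline, ratio 0.394), Cav1, the caveolar coat protein (0.402), and Cyp2b10 (0.384). Among the rule markers Cldn18 had a ratio of 0.393 and Rtkn2 of 0.377, while Ager was at 8097 CPM in bleomycin and 16178 CPM in saline, a ratio of 0.501 (0.484 to 0.518) that just missed 2-fold.

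In low-fibroblast AT1-only cells alone, the ratio of Hopx was 0.32, of Akap5 0.45, of Vegfa 0.48, of Cav1 0.48, of Cldn18 0.47 and of Rtkn2 0.45. Those of Aqp5, 0.59, and Clic5, 0.56, no longer reached 2-fold, and Ager had 0.60. Nkx2-1, the transcription factor that specifies lung epithelium, was also lower, at 195 CPM in bleomycin and 426 CPM in saline (ratio 0.458, 0.366 to 0.570), as 1 of 8 measured lung transcription factors. Cebpa was the 1 that was higher, with 15 UMIs against 0, at least 3.49-fold. Over all measured genes of this class 5.86% were lower and 8.1% higher, so the counts are not read as a result about this list. Of 11 junction genes 0 were called in either direction.

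Transitional genes differed one by one. Cldn4, a claudin of tight junctions (ENSMUSG00000047501, chromosome 5, 134945119 to 134946934), had 123 UMIs in 20 of the 79 bleomycin cells and 0 UMIs in the 82 saline cells. Taken against a floor of 3 UMIs over the saline group it was at least 28.6-fold higher, and at 2000 UMIs it was found in 18.3% of bleomycin cells and 0% of saline cells. Sfn, a 14-3-3 protein that can arrest the cell cycle, was at 964 CPM in bleomycin and 169 CPM in saline, a ratio of 5.70 (4.54 to 7.25). It had a UMI in 48 of 79 bleomycin and 23 of 82 saline cells, with medians of 144 and 0 CPM per cell. These were 2 genes higher and 0 lower of 7 measured. The keratins were not called: Krt8 was at 806 CPM in bleomycin and 552 CPM in saline (ratio 1.46), Krt18 had a ratio of 1.68 and Krt19 of 1.30. Sprr1a was read in 8 bleomycin cells, of which 1 held 81.4% of its UMIs, and in 1 saline cell.

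Of 11 measured genes known as p53 targets, 7 were higher in bleomycin and 0 lower. The median of their log2 ratios was 1.65. Cdkn1a, the cell cycle inhibitor p21 (ENSMUSG00000023067, chromosome 17, 29090976 to 29100727), had per-cell values of 0, 631 and 10185 CPM at the lowest, median and highest in bleomycin. In saline they were 0, 0 and 1633 CPM. It had a UMI in 74.7% of bleomycin and 30.5% of saline AT1-only cells, or 66.2% and 17.5% at 2000 UMIs. Its summed ratio was 7.73 (5.99 to 10.1), while among all other cells it was 0.920. Phlda3, an inhibitor of Akt signalling, was at 323 CPM in bleomycin and 8.14 CPM in saline, a ratio of 39.6 (15.3 to 147), and had a UMI in 52 and 4 cells. Plk2 (7.68), Ccng1 (7.55), Zmat3 (5.06), Sesn2 (3.14) and the pro-apoptotic Bax (3.09) were the others called. Mdm2, which degrades p53, had a ratio of 1.68 and was not called. In the other cells 5 of 10 measured p53 targets were also higher in bleomycin, with 5.32% of all their measured genes called higher.

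Some secreted and lipid genes also differed. Areg, a ligand of the EGF receptor, was at 237 CPM in bleomycin and 4.07 CPM in saline AT1-only cells, a ratio of 58.3 (15.9 to 485), in 21 and 2 cells. Gdf15, a stress-induced growth factor, had a ratio of 8.55 and the chemokine Cxcl17 was at least 8.84-fold higher, and these were 3 higher and 0 lower of 10 epithelial signal genes. In the other cells 4 of 7 measured signal genes were higher and 2 lower, among them Areg with a ratio of 28.3 and Gdf15 with 2.01. Of 13 measured lipid genes 4 were higher, among them Scd1 (22.3), Fasn (5.06) and Me1 (2.47). Chka (0.435) was the 1 called lower, and 8 were not called. Over all measured genes of the class 8.1% were higher and 5.86% lower. Of 14 general epithelial genes 4 were higher, Cldn3, St14, Elf3 and Esrp2, and 0 lower. Cldn3 was at 259 CPM in bleomycin, in 28 cells, and rested on 1 UMI in saline (2.04 CPM). The AT2 marker Sftpd was at 247 CPM in bleomycin and 6.11 CPM in saline, from 31 and 3 cells. Napsa had 38 UMIs against 0, though cells of this class had UMIs of fewer than 3 genes of the AT2 list. Sftpd and Napsa are rule markers, through which cells with little Ager could enter the set, so nothing is read from these differences.

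**Figure D4:**
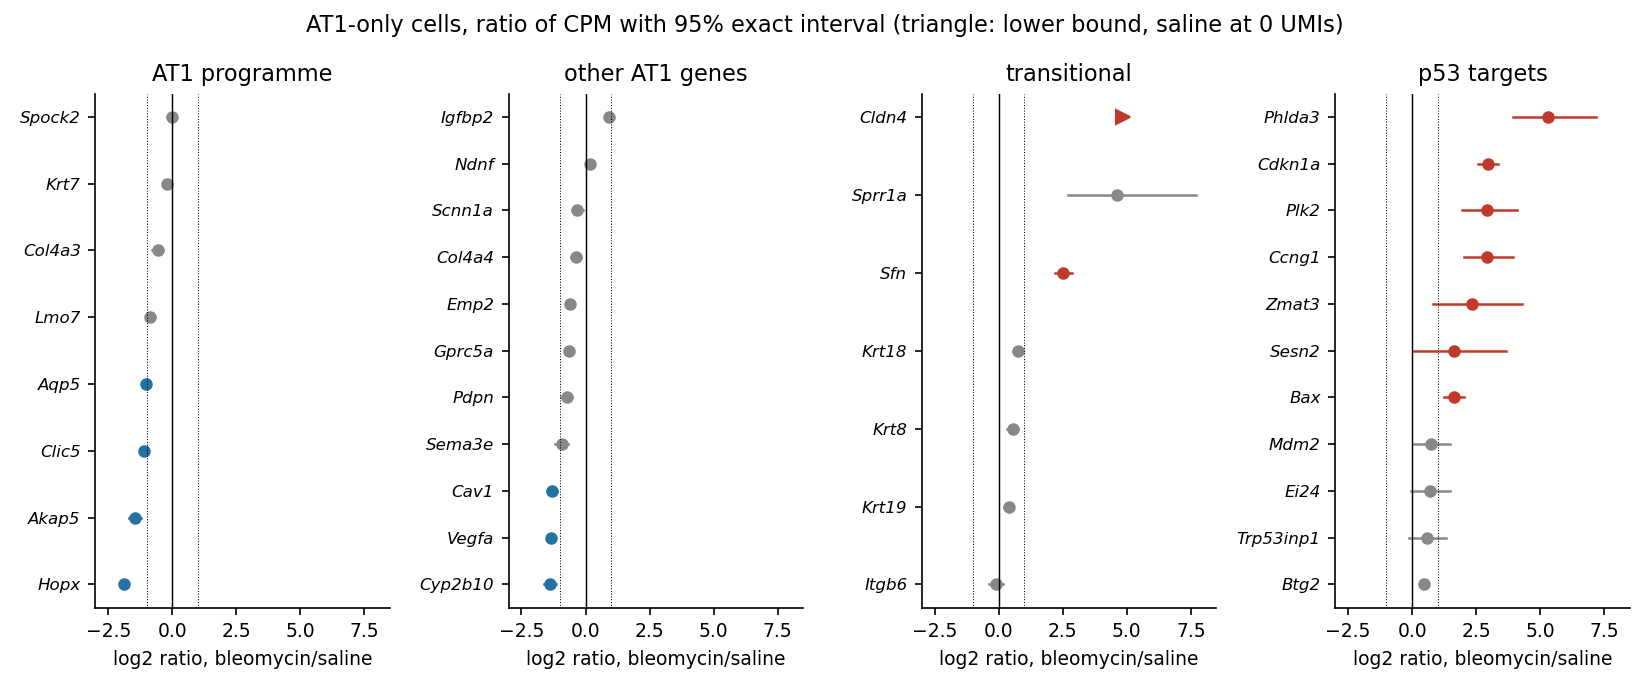
Log2 ratio of bleomycin over saline CPM in AT1-only cells (horizontal) with exact 95% intervals, 1 gene per row, for the AT1, further AT1, transitional and p53 target lists, with genes called higher in red, called lower in blue and not called in grey, dotted lines at 2-fold and a triangle for a lower bound. Called AT1 genes lie left of 0, with Hopx at a ratio of 0.269, and called transitional and p53 target genes right of it, with Sfn at 5.70 and Cdkn1a at 7.73.

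Within the bleomycin AT1-only cells, low Ager went with high Cldn4, Sfn and p53 targets. As a description with no test, and chosen after the data were seen, the cells were divided at 5265 CPM of Ager, the lowest level in any saline AT1-only cell. There were 34 bleomycin cells below it and 45 at or above it, and 3 of these 79 were within 1.25-fold of the limit. Sfn was at 1424 CPM in the cells below, 373 CPM in those at or above and 169 CPM in saline. Cldn4 was at 298, 16.2 and 0 CPM in that order, from 16, 4 and 0 cells. Ager is 1 of the rule markers, so cells with little of it had entered the set through other markers, and nothing is tested by this division. The cells below the limit included 1 ciliated-positive cell and 1 with 841 Scgb1a1 UMIs. Without cells positive for an airway programme or with at least 500 Scgb1a1 UMIs, which left 32, 44 and 82 cells, Sfn was at 1455, 373 and 169 CPM and Cldn4 at 308, 16.4 and 0 CPM.

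The same order was seen for Cdkn1a, at 1323 CPM in the bleomycin cells below, 639 CPM in those at or above and 132 CPM in saline, and for Phlda3 at 450, 159 and 8.14 CPM. Areg was at 372, 64.9 and 4.07 CPM. Cdkn1a and Phlda3 were thus above their saline level in the bleomycin cells with high Ager, in which Ager itself was at 17359 CPM, against 16178 CPM in saline. Hopx was at 688 CPM in the cells below, 8136 CPM in those at or above and 14685 CPM in saline, so that it was lower in both bleomycin groups. Vegfa was at 169, 2888 and 3451 CPM, close to saline in the Ager-high cells. Cldn18 was at 233, 2132 and 2710 CPM and Lmo7 at 412, 1298 and 1446 CPM. Krt7 was at 622, 3664 and 2252 CPM, above saline in the Ager-high cells. Krt8 was at 799, 815 and 552 CPM over all cells, and among low-fibroblast cells at 1210, 878 and 596 CPM, the order of Sfn. Krt19 was at 739, 1688 and 886 CPM, highest in the Ager-high cells, also among low-fibroblast ones (1143, 1824 and 923 CPM).

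**Figure D5:**
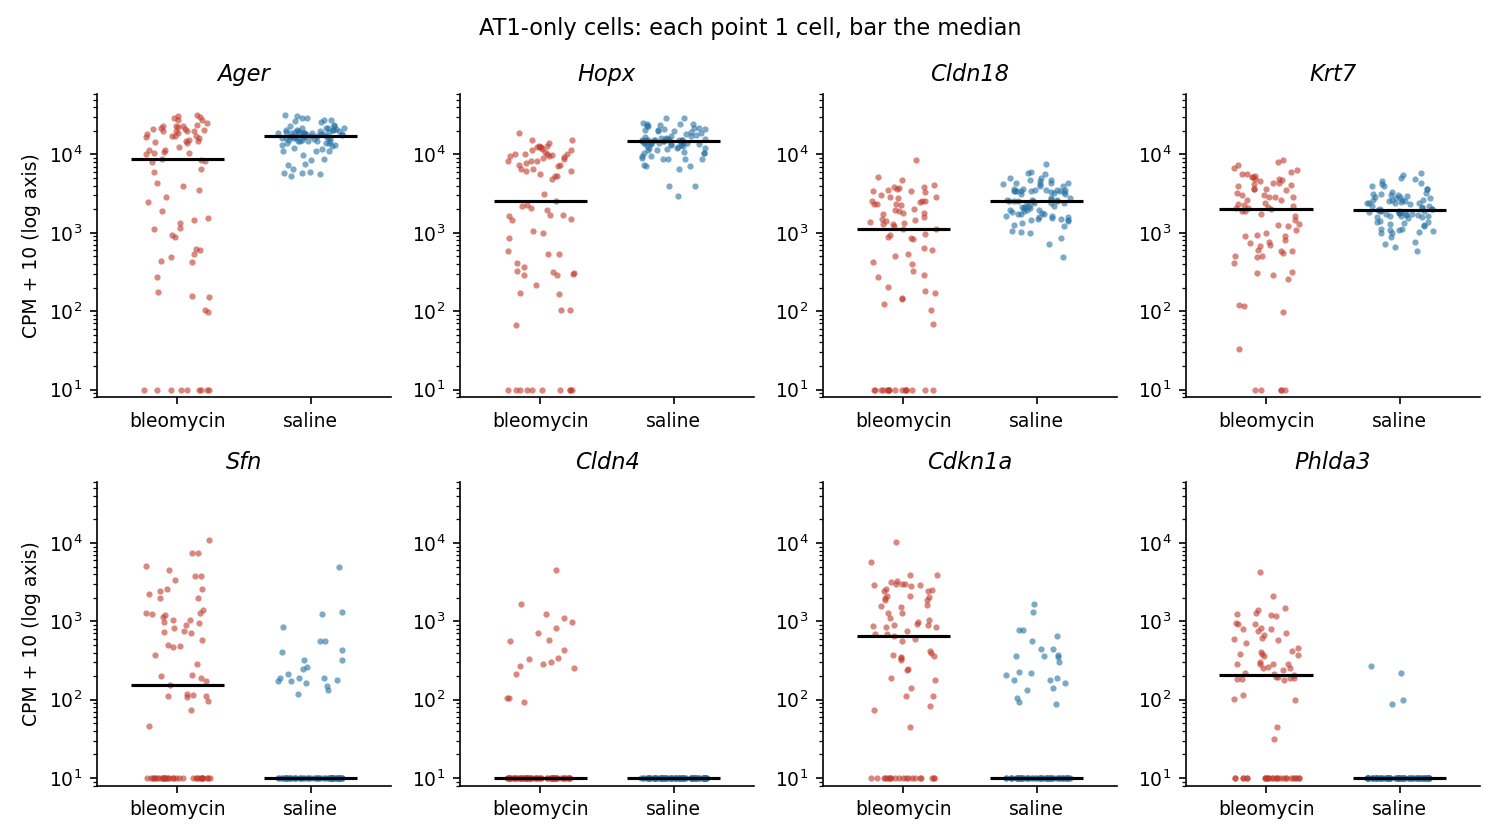
Per-cell CPM plus 10 (vertical, log axis) of 8 genes in AT1-only cells, 1 point per cell, with 79 bleomycin cells left of 82 saline cells in each panel and a bar at the median; points at the bottom of a panel are cells with no UMI of the gene. Cldn4 is at 0 in every saline cell and was read in 20 bleomycin cells, and the median of Cdkn1a is 631 CPM in bleomycin and 0 in saline.

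Fibroblast RNA moved with these differences, and its part in them was not tested. In AT1-only cells 7 of 11 fibroblast genes were higher and 1 lower, and 6 of 12 genes of fibrotic fibroblasts were higher and 0 lower. The summed fibroblast level was 17579 CPM in bleomycin and 7161 CPM in saline. Mgp was at 8694 CPM in bleomycin and 1433 CPM in saline, and Spp1 at 923 and 2.04 CPM, with 72.9% of the bleomycin Spp1 in 1 cell. Of the 34 bleomycin cells with low Ager, 7 were above the low-fibroblast limit, although their median was lower, at 1477 CPM, than the 6797 CPM of the Ager-high cells and the 5346 CPM of saline. In low-fibroblast AT1-only cells the ratio of Cdkn1a was 10.8, of Phlda3 40.5 and of Sfn 7.11, and in the Ager-low ones Cldn4 was at 444 CPM. Msln, a mesothelial gene, was at 121 CPM in 19 bleomycin cells and 8.14 CPM in 4 saline cells, while Lrrn4 and Wt1 were at 0 in both.

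The AT2-positive cells, 68 in bleomycin and 16 in saline, gave 459 genes higher of 6051 measured (7.59%) and 31 lower (0.512%). A call needed UMIs in 10 cells of the higher library, which a gene higher in saline had to reach among 16 cells, so the direction of these counts is not read. Of these cells 7 in bleomycin and 1 in saline were club-positive or ciliated-positive, and without them the counts were 303 higher and 51 lower of 6608 measured. The median log2 ratio was 0.256, and 1 saline cell held nearly all of the 118684 CPM of Scgb1a1 in the saline sum. Of 8 AT2 genes 0 were higher and 1 lower, the chitinase-like Chil1 at 453 CPM in bleomycin and 1208 CPM in saline (ratio 0.375). Sftpc was at 53218 CPM in bleomycin and 75540 CPM in saline, a ratio of 0.705, and of 6 MHC class II genes 0 were called.

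Of 7 measured transitional genes 5 were called higher in AT2-positive bleomycin cells, with and without the airway-positive cells. Krt8 was at 646 CPM in bleomycin and 135 CPM in saline, a ratio of 4.79 (3.10 to 7.79), with a UMI in 56 of 68 and 7 of 16 cells. Krt18 had a ratio of 2.92, Krt19 of 2.54 and Sfn of 3.81, and Cldn4 had 51.3 CPM in bleomycin and 0 in saline. Of 8 AT1 genes 4 were higher, namely Aqp5 (2.05), Akap5 (5.21), Spock2 (2.75) and Col4a3 (2.32). The keratins were thus called in AT2-positive cells and not in AT1-only cells, a difference that was not tested. In bleomycin, Krt8 was at 806 CPM in AT1-only cells, 785 CPM in cells with both programmes and 223 CPM in AT2-only cells. In saline it was at 552, 305 and 11.1 CPM in that order. Of the AT2-positive cells, 48 of 68 in bleomycin and 8 of 16 in saline had the AT1 programme too.

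Genes of injured AT2 cells were led by Lcn2, an iron-binding acute-phase protein. It was at 3298 CPM in AT2-positive bleomycin cells and 1272 CPM in saline ones (ratio 2.59, 2.24 to 3.01), although a UMI was about as frequent, in 48 of 68 and 13 of 16 cells. Cxcl17 (9.45) and Orm1, which had no saline UMI, were the other genes called of 8 measured. Without the airway-positive cells Cxcl17 had a ratio of 4.68 and Orm1 was not called. The list was not particular to these cells. In the other cells 2 of its 4 measured genes were also higher in bleomycin and 0 lower, with 5.32% of all their measured genes called higher. The summed level of the list there was 518 CPM in bleomycin and 184 CPM in saline. Of 11 p53 targets 5 were higher (4 of 10 without the airway-positive cells), among them Ccng1 (10.4) and Bax (3.18), while Cdkn1a had a ratio of 1.58 and was not called. Areg had a ratio of 4.10 and Gdf15 of 5.72. Fibrotic fibroblast genes were higher here as well, 8 of 10 measured, and their part in these results was not tested.

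Beyond the lists, the genes highest in bleomycin AT1-only cells and enriched over other cells were Cldn4, Mal, a protein of apical membrane sorting (89 UMIs in 22 cells against 0, at least 20.7-fold), Cxcl17, Napsa, the glutathione peroxidase Gpx2, Anxa8, Traf4, Znhit6, C77080, Mmp15, Vill and Cebpa. Of these, Napsa is a rule marker, so its level depends in part on the selection. All 12 had 0 UMIs in saline AT1-only cells, because the ranking by ratio put such genes first. Their lower bounds went down to 3.49-fold, for Cebpa, so the list is not an order of size. The 12 lowest were led by Edn3, which encodes endothelin 3, with 1 UMI in bleomycin and 27 in 22 saline cells (ratio 0.0259, 0.000632 to 0.157). Tppp3 was at 105 CPM in bleomycin and 855 CPM in saline (ratio 0.123), read in 38.0% and 92.7% of cells. Among the others were Gm14964, Sftpc, Klf15, Spaar, Atoh8, Rph3al, Rspo1, Gm20707 and Hist1h1e. Some of these genes were lower outside the epithelial-marker cells too. In all other filtered cells Edn3 had a ratio of 0.107, at 0.799 and 7.44 CPM. Gm14964 (0.141) and Klf15 (0.177) were called lower there. Tppp3 had 0.518 and Rspo1 0.987 there, and Hist1h1e was higher, at 2.89. For Sftpc, 1 saline cell held 96.1% of the saline UMIs.

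Relative to the other cells of each library, the genes that stood out most were not the same. In bleomycin the 12 highest were Cd177, Sftpd, Slc34a2, Sftpa1, Sftpc, Lamp3, Cxcl15, Sftpb, Krtap17-1, Sfta2, Scnn1g and S100g, mostly AT2 genes, and Cd177 came from 4 cells. In saline they included the sodium channel subunits Scnn1g and Scnn1b, Itgb6, Mab21l4, Nkx2-1, Pof1b, Sfta3-ps, Ocln, Gramd2, Ager and Mal2. Genes higher in epithelial-marker cells than in other cells made up 13.8% of 6383 measured in bleomycin and 19% of 6680 in saline, and genes lower in them 11.5% and 17.9%. Sftpd, Slc34a2, Lamp3 and Sftpb in the bleomycin ranking and Ager in the saline one are rule markers. Since the rule chose the cells from the same counts, nothing is read from these rankings or shares.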

How the data were processed

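Per the labels' protocols, the libraries were made with the 3' kit of 10x Genomics (v3 chemistry). The deposited matrices hold raw UMI counts per gene and barcode, made with Cell Ranger 6.1.2 on mm10 per the submitters' processing notes. Cells with at least 500 genes and at most 10% mitochondrial UMIs were kept (10001 bleomycin, 8350 saline). UMIs were summed over cells and divided by their total (CPM). Shares carry exact Clopper-Pearson, levels exact Poisson and ratios exact conditional binomial 95% intervals, which cover counting error only. A count of 0 was given a floor of 3 UMIs over the group. Doublets were scored with Scrublet in scanpy 1.11.5 and kept. Python 3.11.15, numpy 2.4.6, scipy 1.17.1 and pandas 2.3.3 were used, and the calls were tested on simulated data. Gene positions came from the GENCODE M21 annotation of mm10, in which all 311 listed genes were matched.

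The named genes were the rule markers, the listed genes, the 12 highest and 12 lowest ratios between libraries among called genes at least 2 times higher than in other cells, and the 12 highest ratios over other cells at 100 CPM or more. The cell rule and gene lists were chosen with earlier results of these data known. The AT1-only and AT2-positive comparisons, the split by Ager and the values without airway cells were chosen after the data were seen. A few genes among those named by these criteria are not reported here.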

Additional observations from a re-analysis of the deposited data

Results flagged for a closer look

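In 11 of 137 bleomycin barcodes and 0 of 46 saline barcodes that failed the cell filter, the marker rule was met, and these barcodes are in no comparison above. Pdgfa and Wnt4 differed between the libraries in opposite directions in the whole set of epithelial-marker cells and in all other cells, and the difference was not tested. In AT1-only cells neither gene was called. In AT2-positive cells 0 of 9 measured signal genes were lower, so Pdgfa was not called lower there either. The part of the mixture of classes in the whole-set ratios was not tested. Pdgfa, a growth factor for fibroblasts, had a ratio of bleomycin over saline of 0.433 in epithelial-marker cells, while in the other cells it was at 68.1 CPM in bleomycin and 25.7 CPM in saline. Wnt4 had a ratio of 4.00, while in the other cells it was at 27.7 and 59.7 CPM. In AT1-only cells the histone gene Hist1h1e had a ratio of 0.143, against 20.8 CPM in bleomycin and 7.17 CPM in saline of the other cells. Scgb1a1 had a ratio of 104 in AT1-only cells, with 70.5% of its bleomycin UMIs in 1 cell. Its ratio in the other cells was 0.0897, with 89.7% of its UMIs in the other saline cells lying in 4 cells. Neither direction is therefore read as a property of the cells at large.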

How the results depend on the processing

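The share of epithelial-marker cells, 1.60% in bleomycin and 1.21% in saline, was 2.30% and 1.76% with 2 rule markers, 1.22% and 0.898% with 4, and 1.10% and 0.952% with cells thinned to 2000 UMIs. At 2000 UMIs the AT2 share in bleomycin was 22.7%, the AT1 share 52.0%, and the transitional share 52.7% in bleomycin and 47.5% in saline. With 2 programme genes as the limit, AT2 was 58.1% in bleomycin and 33.7% in saline, and in bleomycin AT1 was 89.4%, club 10.0% and transitional 85.0%. With 4 rule markers AT1 was 86.1% in bleomycin, transitional 87.7% and 89.3%, and club in saline 0%. In low-fibroblast cells AT1 was 87.0% and 95.6%, and transitional in bleomycin 88.5%. The gene counts (590 higher, 512 lower) were 168 and 184 at 100 CPM, 303 and 51 in AT2-programme cells without airway programmes, and 132 higher among genes at least 2 times over other cells, with 31 lower in AT2-positive cells. Those of AT1-only cells (556 and 402) were 175 and 146 at 100 CPM, 119 higher among genes 2 times over other cells, and 207 and 227 with Ager-high bleomycin cells. With the Ager-high cells, only 104 of the 556 higher and 124 of the 402 lower genes were called again. Of the AT1-only gene ratios followed there, 22 left their main interval and 16 did not. In low-fibroblast AT1-only cells, 349 of the higher and 269 of the lower genes were called again. Scgb1a1, at a ratio of 0.429, had 1.27 with each cell weighing the same, 1.21 without the deepest cell of each library and 411 with 4 rule markers. Among AT2-programme cells without airway programmes Lamp3 had 0.896, Sftpb 0.936 and Ager 1.17, on the other side of 1 from all cells. Anxa8 and Ffar4 had no saline UMI there and lower bounds under 1, which carry no direction, so they gave no ratio. The cause of these shifts was not tested. Median-ratio scaling moved log2 ratios by 0.033 in all cells and 0.012 in AT1-only cells. No paired analysis was possible because each treatment had 1 library.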
